A study of Mus musculus with 18 samples.

Results

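The muscles compared were soleus and extensor digitorum longus (EDL) of BG mice, which lived in a copy of the flight habitat that stayed on the ground, with 3 arrays for each muscle and therefore 6 of the 18 arrays of the study. Arrays were chosen by their titles, which name the muscle and the condition, and no measured value took part in the choice. All mice were adult males with no transgene or deletion, of strain C57/BL6 by the labels and C57BL/N6 by the study's methods, kept for 30 days in 1 of 3 conditions: BG, flown on the Bion M1 biosatellite (BF), or housed in the animal facility (FC). A description field of BF EDL 2 and BF EDL 3 names Bion M2 and Bion M3 instead, while their source names Bion M1 as for the other BF arrays. BG and BF mice ate paste food and FC mice standard chow. Each array holds RNA of a whole muscle, which is a mixture of fibre types with vessels, nerve, fat and connective tissue. The comparison asks how a slow and a fast muscle differ in mice that had the flight housing and food without the flight.

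Skeletal muscle fibres are built from sets of paralogous proteins. Slow, type 1 fibres carry a slow myosin, slow troponins and light chains, a slow calcium pump and many mitochondria, and they hold posture for long periods. Fast, type 2 fibres carry faster myosins (2A, 2X and 2B), a dense calcium release system and the enzymes of anaerobic glycolysis, and they serve brief, strong movements. Mouse soleus is a calf muscle of mostly type 1 and 2A fibres, whereas EDL, which lifts the foot and toes, is made mainly of 2X and 2B fibres. Levels below are the deposited log2 signals, so that a difference of 1 is a 2-fold difference, and every difference is soleus minus EDL unless stated otherwise.

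Most of the chosen markers separated the labelled muscles. The slow markers Myh7, Tnni1, Tnnc1, Tnnt1, Myl2 and Myl3 were each higher in all 3 soleus arrays than in all 3 EDL arrays. The fast markers Myh4, Actn3 and Pvalb were higher in all 3 EDL arrays. The other fast markers did not separate them: Myh1 and Tnni2 did not pass the test described below, and Mybpc2 was not analysed. Over all probe sets the Euclidean distance between a soleus and an EDL array was 68.1 to 89.3, against 35.2 to 41.9 among soleus arrays and 39.5 to 59.2 among EDL arrays. Arrays that stood apart within their muscle are described here because several results touch them. BG EDL 1 had the highest level of the EDL arrays in 12 of 16 called slow fibre genes (75.0%) and in 128 of the 255 genes called higher in soleus (50.2%), against 25.3% of all genes. BG soleus 2 had the highest level of the soleus arrays in 6 of 7 called fast fibre genes (85.7%) and in 103 of the 219 genes called higher in EDL (47.0%), against 35.2% of all genes. BG EDL 2 carried epidermal transcripts, with a mean over 22 epidermis and epithelium genes of 6.72 against 4.68 to 4.88 in the other EDL arrays and 4.59 to 4.86 in soleus. The labels do not say whether replicates, or both muscles of 1 number, came from the same mouse, so p values measure the spread between these arrays, and their number limits the precision.

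A gene was called when its probe set of highest mean signal differed more than 2-fold with a p under 0.05 in limma, adjusted over 22626 probe sets. Of 12393 genes, 474 were called (3.82%), 255 higher in soleus (2.06%) and 219 higher in EDL (1.77%). The arrays of both muscles did not overlap in 472 of the 474, where 38.2% of all genes showed no overlap. More than 4-fold, 59 genes were higher in soleus and 42 in EDL, and past 8-fold 21 and 10. With an adjusted p under 0.05 at any fold, 1028 genes were higher in soleus (8.3%) and 1079 in EDL (8.71%), and members of gene lists are counted below at that threshold. The median difference of all genes was -0.06 and the median SE 0.14. Without BG soleus 2 and BG EDL 1 together, 485 genes were called, of which 407 were among the 474, and no called gene changed sign when any BG array was left out. Without BG EDL 2, 459 were called and 408 were shared.

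Slow fibre genes were higher in soleus at the RNA level almost without exception. Of 20 listed contractile and calcium genes, 17 were measured, 16 were higher in soleus and none in EDL, and all 16 differed more than 2-fold (94.1% of the list, against 8.3% of all genes at any fold and 2.06% past 2-fold). The median difference of the list was 3.03, or 3.17 without BG EDL 1. The 250 bases before the transcription start of the slow troponin I gene Tnni1 and the slow myosin gene Myh7 are shown because both genes are among the 15 largest soleus differences. Sequences are from RefSeq, build GRCm38.p6, written 5′ to 3′ on the strand of the gene: Tnni1 at chr1:135799171-135799420 on the plus strand and Myh7 at chr14:54994627-54994876 on the minus strand. Capitals mark an E-box of the letters CAGCTG in Tnni1, from base -68 to -63 before the start, and in Myh7 the MCAT letters CATTCC, here as GGAATG on the printed strand, from base -201 to -196.
Tnni1: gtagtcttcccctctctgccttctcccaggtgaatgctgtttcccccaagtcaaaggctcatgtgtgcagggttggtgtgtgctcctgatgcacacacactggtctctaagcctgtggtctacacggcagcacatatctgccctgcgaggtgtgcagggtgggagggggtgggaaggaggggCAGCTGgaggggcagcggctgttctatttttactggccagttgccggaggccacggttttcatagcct
Myh7: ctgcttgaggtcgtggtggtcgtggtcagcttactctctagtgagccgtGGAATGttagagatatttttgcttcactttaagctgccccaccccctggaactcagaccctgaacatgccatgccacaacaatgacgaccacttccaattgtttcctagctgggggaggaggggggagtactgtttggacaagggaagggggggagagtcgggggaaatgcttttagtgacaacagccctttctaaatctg

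Myh7 encodes the slow, type 1 myosin heavy chain, the motor of slow fibres. Its signal was 13.78, 13.74 and 13.72 in soleus and 10.37, 8.33 and 7.77 in EDL, a 30.3-fold difference (4.92 ± 0.95 SE, limma adjusted p = 0.0018). Soleus arrays agreed closely, while the EDL arrays spread over more than 2 log2 units with BG EDL 1 on top. A pair of probe sets naming Myh6 and Myh7 together differed by 5.36 ± 0.67 and 3.35 ± 0.17. Tnni1 read 13.23, 13.29 and 13.30 in soleus against 9.47, 7.44 and 7.76 in EDL, a 33.1-fold difference (5.05 ± 0.69, adjusted p = 8.8e-05). The partners of the slow troponin complex behaved likewise, with differences of 4.49 ± 0.72 for Tnnt1 (tropomyosin binding) and 4.26 ± 0.77 for Tnnc1 (calcium binding). The slow myosin light chains Myl3 (4.15 ± 0.65) and Myl2 (3.36 ± 0.67) and the slow tropomyosin Tpm3 (3.68 ± 0.67) completed the slow filament set. In each of these genes BG EDL 1 was the highest EDL array, and without it the differences were larger, up to 5.69 for Myh7 and 5.67 for Tnni1. In RNA of whole muscle, fewer fibres of a type and less RNA per fibre of that type cannot be told apart.

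Calcium handling and Z-disc members of the slow list followed. Casq2, the cardiac and slow calsequestrin that stores calcium, was 10.99, 10.81 and 11.09 in soleus and 8.07, 7.66 and 8.25 in EDL (7.84-fold, 2.97 ± 0.18, adjusted p = 2.5e-08). Phospholamban, Pln, the inhibitor of the slow calcium pump, was 8.45, 8.61 and 8.65 against 6.24, 6.22 and 6.19 (5.11-fold, 2.35 ± 0.18, adjusted p = 3.1e-07). Atp2a2, that pump itself, differed by 3.66 ± 0.54 (12.7-fold). For these genes no soleus array came near an EDL array. At the Z-disc, the calcineurin-binding Myoz2 differed by 3.03 ± 0.47 and the actinin Actn2, which all fibres use, by 1.34 ± 0.21. Ankrd2, a stretch-responsive ankyrin repeat protein, differed by 3.01 ± 0.50, Smtnl1, a smoothelin-like protein, by 2.86 ± 0.41 and the actin filament nucleator Lmod2 by 1.86 ± 0.33. Csrp3, the muscle LIM protein, differed by 2.65 ± 0.76 with an adjusted p of 0.025, and this call ended when any of the BG arrays other than EDL 1 was left out (adjusted p up to 0.092). The remaining member, the light chain Myl6b, had a difference of -0.38 and an adjusted p of 0.0866, which became -0.50 and 0.049 without BG soleus 3.

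**Figure D1:**
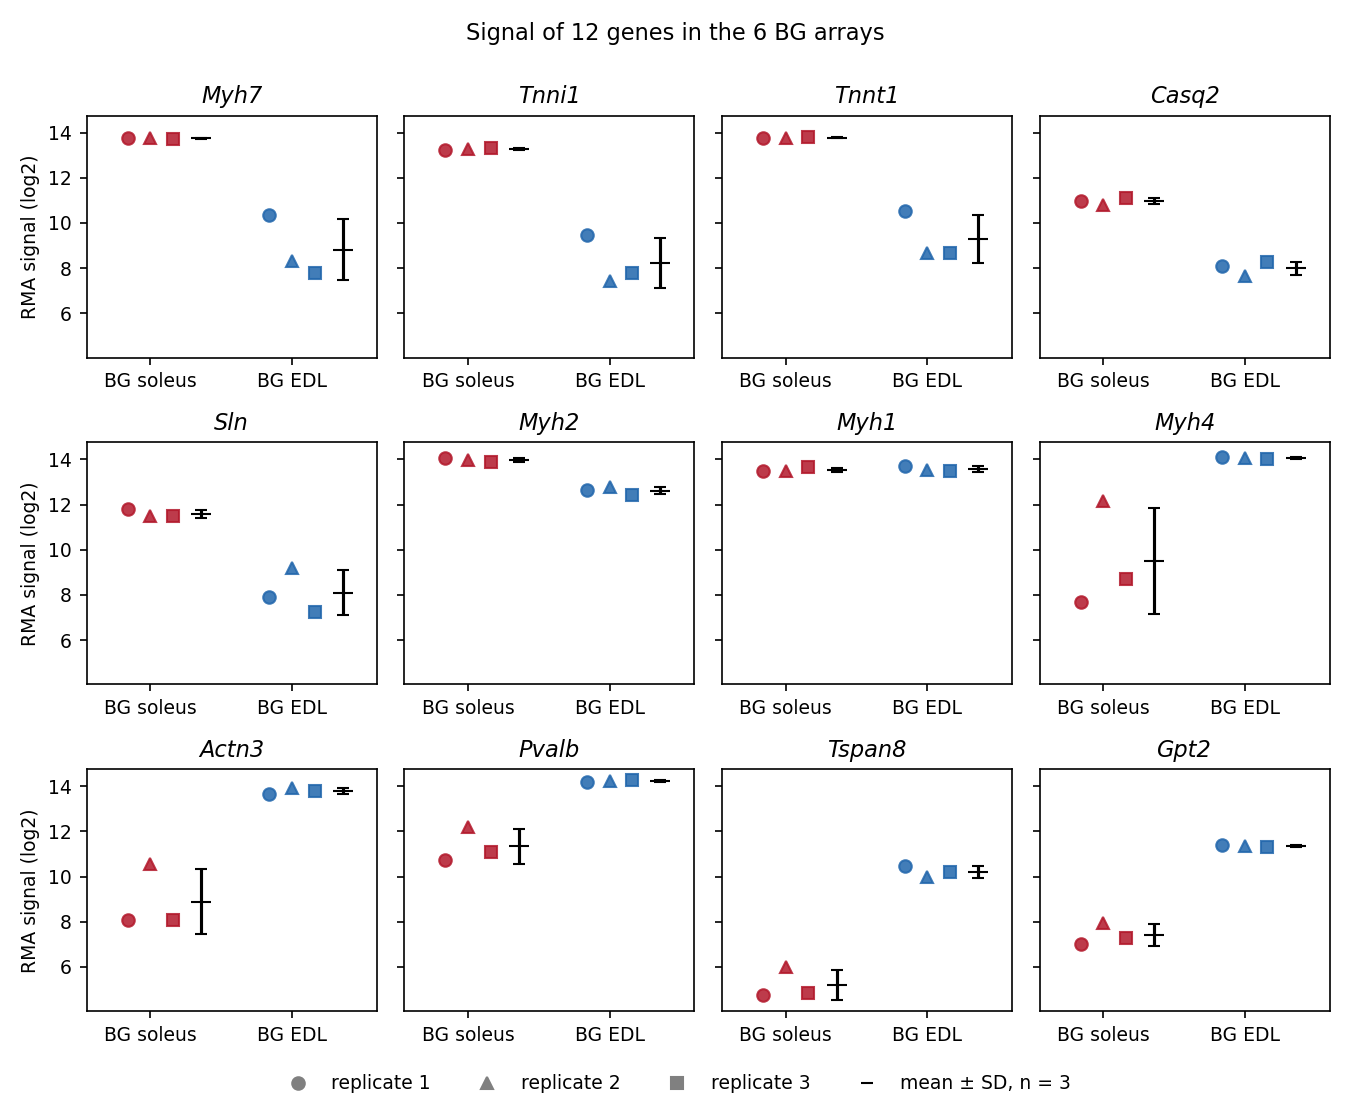
Log2 RMA signal of 12 genes in each BG array, soleus in red and EDL in blue, with symbols for the replicate number and bars for mean ± SD (n = 3). The slow genes Myh7, Tnni1 and Tnnt1 have BG EDL 1 above the other EDL arrays, the fast genes Myh4, Actn3 and Pvalb have BG soleus 2 above the other soleus arrays, and Myh1 lies between 13.47 and 13.72 in all 6 arrays.

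Fast fibre genes fell into a group with large differences and a group at nearly the same level in both muscles. Of 20 listed genes 19 were measured, 9 were higher in EDL (47.4%, against 8.71% of all genes), 2 were higher in soleus and 8 did not pass, with a list median of -0.48. The 250 bases before the starts of Myh4 and Pvalb are shown because these genes carried some of the largest EDL differences. From RefSeq, build GRCm38.p6, Myh4 lies at chr11:67237562-67237811 on the plus strand and Pvalb at chr15:78206401-78206650 on the minus strand. Capitals mark, in Myh4, CATTCC from base -231 to -226, a match to the MEF2 consensus from -182 to -173 and CAGCTG from -67 to -62, and in Pvalb a MEF2 match from -180 to -171.
Myh4: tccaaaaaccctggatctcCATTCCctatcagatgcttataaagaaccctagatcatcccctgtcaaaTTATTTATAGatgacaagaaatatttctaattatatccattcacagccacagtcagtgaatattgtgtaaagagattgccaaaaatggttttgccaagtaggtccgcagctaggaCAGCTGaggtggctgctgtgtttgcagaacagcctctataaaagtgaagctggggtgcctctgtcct
Pvalb: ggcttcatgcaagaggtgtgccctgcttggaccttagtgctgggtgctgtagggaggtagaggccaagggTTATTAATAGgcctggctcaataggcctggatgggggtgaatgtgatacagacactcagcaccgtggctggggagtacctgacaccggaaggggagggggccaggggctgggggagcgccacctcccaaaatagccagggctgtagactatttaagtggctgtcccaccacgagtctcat

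In windows from 250 bases before to 50 after the start, searched on both strands, CAGCTG was found in 6 of 16 slow list promoters (37.5%) and 6 of 11 fast list promoters (54.5%), where 16.1% of 27025 promoters hold it. CATTCC was found in 3 slow (18.8%) and 5 fast (45.5%) promoters against 14.6% of all, and MEF2 in 2 slow (12.5%) and 3 fast (27.3%) against 3.26% of all. No pair of these motifs shares bases in the sequences printed here. These counts describe letters in the window, and only list genes present in the promoter table were searched.

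Myh4, the 2B myosin heavy chain of the fastest fibres, was 7.68, 12.15 and 8.71 in soleus and 14.12, 14.06 and 14.02 in EDL (23.5-fold lower in soleus, -4.56 ± 0.79, adjusted p = 0.00077). EDL arrays agreed closely, and BG soleus 2 lay more than 3 log2 units above the other soleus arrays. Without BG soleus 2 the difference was -5.87. Actn3, the fast fibre actinin of the Z-disc, was 8.07, 10.54 and 8.07 against 13.66, 13.92 and 13.80 (29.9-fold, -4.90 ± 0.50, adjusted p = 5.6e-06). Pvalb, the calcium buffer parvalbumin, was 10.71, 12.18 and 11.10 against 14.18, 14.21 and 14.26 (7.43-fold, -2.89 ± 0.29, adjusted p = 4.5e-06). BG soleus 2 was again the highest soleus array in both, and no soleus array reached an EDL array. Further members higher in EDL past 2-fold were Mylk2, the skeletal myosin light chain kinase (-2.25 ± 0.31), the M-band protein Myom2 (-1.54 ± 0.22) and Myoz1 (-1.53 ± 0.14). So was the skeletal muscle calsequestrin Casq1 (-1.01 ± 0.24), which was under 2-fold without BG EDL 3 (-0.96) or BG soleus 2 (-0.98). The fast regulatory light chain Mylpf (-0.50 ± 0.10) and the fast calcium pump Atp2a1 (-0.48 ± 0.09) passed the test below 2-fold.

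Listed fast genes that were higher in soleus were Myh2, the 2A myosin, and Sln, sarcolipin, an inhibitor of the calcium pump. The Sln difference was toward soleus in FC (5.69) and BF (1.81) mice too, so these values do not bear out its place on the fast list. Myh2 was 14.05, 13.96 and 13.89 in soleus and 12.65, 12.77 and 12.44 in EDL (2.54-fold, 1.35 ± 0.31, adjusted p = 0.0071). Sln was 11.79, 11.49 and 11.49 in soleus and 7.92, 9.17 and 7.22 in EDL (11.2-fold, 3.49 ± 0.41, adjusted p = 2.2e-05). Neither gene had overlapping arrays. Myh1, the 2X myosin, was 13.48, 13.47 and 13.65 in soleus and 13.72, 13.53 and 13.47 in EDL, a difference of -0.04 ± 0.14 (adjusted p = 0.884) with interleaved arrays. The other members that did not pass included the fast troponins Tnnt3 (-0.21), Tnni2 (-0.23) and Tnnc2 (-0.18), the light chain Myl1 (-0.18) and the tropomyosin Tpm1 (-0.26). Their signals lay between 13.56 and 14.33 in all 6 arrays, near the highest value of the table (14.53), and whether this range limits their differences was not tested. The Z-disc protein Myoz3 differed by -0.47 (adjusted p = 0.0983, and -0.66 with 0.028 without BG EDL 2), and Mybph, a myosin-binding protein, by -2.0 ± 0.77 (adjusted p = 0.0868).

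Set out as isoform pairs, the slow partner was called higher in soleus in all 11 pairs compared. The fast partner was called higher in EDL for Actn3, Myoz1 and, with all arrays, Casq1 (-1.01, and -0.96 without BG EDL 3). It passed below 2-fold for Mylpf and Atp2a1, and did not pass for Tnni2, Tnnc2, Tnnt3, Tpm1 and Myl1. Sln, set as a fast partner, was higher in soleus, so its pair does not contrast a slow with a fast gene in these muscles. Actn2, set as a slow partner, is used by all fibres. Casq1, set as a fast partner, is by the study's account expressed in slow fibres too.

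**Figure D2:**
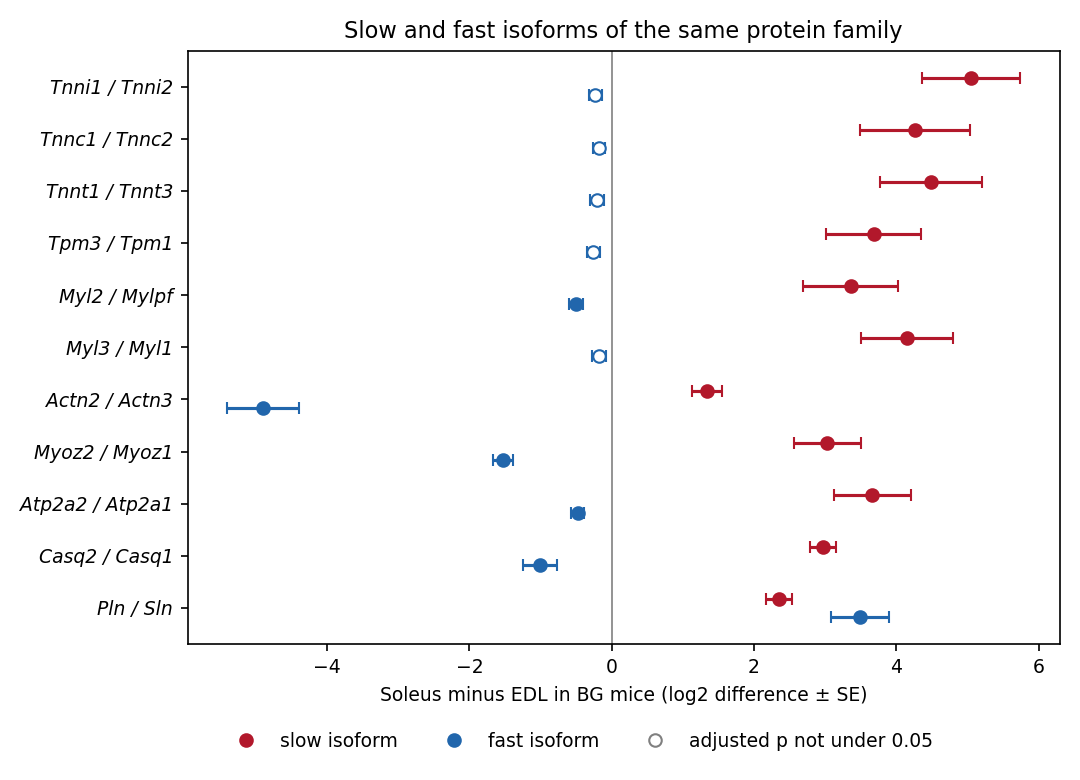
Difference between soleus and EDL in BG mice (log2, ± SE from limma) for slow isoforms in red and their fast partners in blue, with open circles where the adjusted p was not under 0.05. Genes drawn as slow isoforms lie between 1.34 (Actn2, which all fibres use) and 5.05 (Tnni1). The fast troponins, Tpm1 and Myl1 lie between -0.26 and -0.18. Sln is drawn as a fast partner although it was higher in soleus.

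Among genes of excitation and calcium release, 27 were measured, 8 were higher in EDL (29.6%) and 2 in soleus (7.41%), and the 8 became 5 without BG soleus 2. Genes of sodium pump beta subunits had signal in both muscles at unlike levels. Atp1b2 was 7.49, 7.90 and 7.91 in soleus and 10.57, 10.91 and 10.71 in EDL (-2.97 ± 0.34, adjusted p = 1.7e-05), and Atp1b1 was 13.20, 12.83 and 12.93 against 11.58, 11.78 and 11.33 (1.43 ± 0.24, adjusted p = 0.00063). Neither gene had overlapping arrays, and they differed in opposite directions. Atp1b4, a related gene outside the list that was looked up after its value was seen, was called higher in soleus (2.15). Kcnma1, the pore of the calcium-activated BK potassium channel, was higher in soleus (3.90-fold, 1.96 ± 0.18, adjusted p = 1.5e-06). Cacng1, the gamma subunit of the muscle calcium channel (-1.29 ± 0.21), and Clcn1, the chloride channel that stabilises the resting membrane (-1.08 ± 0.16, and -0.95 without BG EDL 2), were higher in EDL.

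Many of the large differences lay outside the contractile lists. Among them toward soleus was Lgi1, a secreted leucine-rich protein known from inherited epilepsy, at 7.64, 7.94 and 8.60 in soleus and 3.99, 3.29 and 3.81 in EDL (20.6-fold, 4.36 ± 0.34, adjusted p = 3.1e-07). Dusp18, a dual-specificity phosphatase, was 10.58, 10.64 and 10.15 against 6.54, 6.09 and 6.30 (17.7-fold, 4.15 ± 0.31, adjusted p = 2.3e-07). Both had soleus arrays more than 3 log2 units above every EDL array, but the EDL levels of Lgi1, and those of Sim2 and Dkk2 below, were all under 5, where probe sets are dim, so that these folds rest on a dim level. Further genes were the transcription factor Sim2 (3.80 ± 0.43), the secreted protein Scube2 (3.64 ± 0.24), Ift81, a transport protein of cilia (3.57 ± 0.29), the Wnt antagonist Dkk2 (3.56 ± 0.38) and Bdh1, the mitochondrial enzyme of ketone body use (3.49 ± 0.45).

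Toward EDL the difference was -5.00 for Tspan8, a membrane tetraspanin, at 4.77, 5.99 and 4.85 in soleus and 10.45, 9.96 and 10.20 in EDL (32.0-fold, SE 0.48, adjusted p = 3.2e-06). Gdap1, a mitochondrial outer membrane protein, was 4.64, 5.77 and 4.82 against 9.15, 9.43 and 9.15 (17.9-fold, -4.16 ± 0.54). Gpt2, the mitochondrial alanine aminotransferase, was 7.02, 7.94 and 7.26 against 11.41, 11.36 and 11.30 (15.4-fold, -3.95 ± 0.32). In each, BG soleus 2 was the highest soleus array, and it stayed at least 3 log2 units below the EDL arrays. The other soleus arrays were under 5 for Tspan8 and Gdap1, so that these folds rest on dim levels too, and without BG soleus 2 Tspan8 (-5.39) differed by less than Myh4 (-5.87) and Actn3 (-5.72). Smox, which oxidises spermine, differed by -3.64 ± 0.48 and Pla2g7, which cleaves platelet-activating factor, by -3.27 ± 0.37. Slc37a4, the glucose-6-phosphate transporter of the endoplasmic reticulum, differed by -2.89 ± 0.38 and the TLC domain gene Tlcd4 by -3.05 ± 0.36. Genes of Wnt signalling were on both sides: the ligand Wnt4 (-2.92 ± 0.22, 7.59-fold) and the dickkopf family member Dkk3 (-2.89 ± 0.36, 7.41-fold) were higher in EDL, and Dkk2 (11.8-fold) and the receptor Fzd9 (5.52-fold) in soleus.

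Of 41 transcription factors and signalling genes of fibre type, 8 were higher in soleus (19.5%) and 10 in EDL (24.4%), with a median of -0.01. Called toward soleus was Esrrb, an estrogen-related orphan receptor, at 7.84, 7.86 and 7.54 in soleus and 5.27, 5.52 and 5.56 in EDL (4.91-fold, 2.30 ± 0.25, adjusted p = 1.1e-05). The calcineurin regulator Rcan2 differed by 1.59 ± 0.18 (3.01-fold) and Ppara, the fatty acid receptor, by 1.26 ± 0.27 (2.39-fold, and 0.97 without BG soleus 1). Rcan1, its relative, differed by 1.55 ± 0.42 with an adjusted p of 0.0185 that reached 0.092 without BG EDL 2, 0.08 without BG soleus 1 and 0.055 without BG soleus 3. Ppargc1a, the mitochondrial coactivator PGC-1 alpha, was 11.85, 9.83 and 11.03 in soleus and 9.94, 9.27 and 9.55 in EDL (1.32 ± 0.34, adjusted p = 0.0126). Its arrays overlapped, and the call ended without BG soleus 1 (0.84, adjusted p = 0.066) or BG EDL 2 (adjusted p = 0.057). The soleus count of the list was 4 without BG EDL 2 and 5 without BG EDL 3 or BG soleus 1.

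Called toward EDL was Sox6, a repressor of slow fibre genes, at 8.33, 8.11 and 8.0 in soleus and 9.44, 9.68 and 9.46 in EDL (2.61-fold, -1.38 ± 0.23, adjusted p = 0.00064). Nr4a1, an orphan nuclear receptor, was 9.50, 9.27 and 8.99 against 10.45, 11.07 and 10.54 (2.70-fold, -1.43 ± 0.23, adjusted p = 0.00033). Both had higher levels in every EDL array than in any soleus array. The homeobox gene Six2 differed by -1.27 ± 0.21 and Tbx15, a T-box factor of glycolytic fibres, by -1.18 ± 0.29. Myod1, the myogenic factor, differed by -1.76 ± 0.54 with an adjusted p of 0.0342, which lay between 0.063 and 0.1 when any 1 of the 6 arrays was left out. Mef2c, which binds the MEF2 motif, had a difference of 0.26 ± 0.16 (adjusted p = 0.308).

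**Figure D3:**
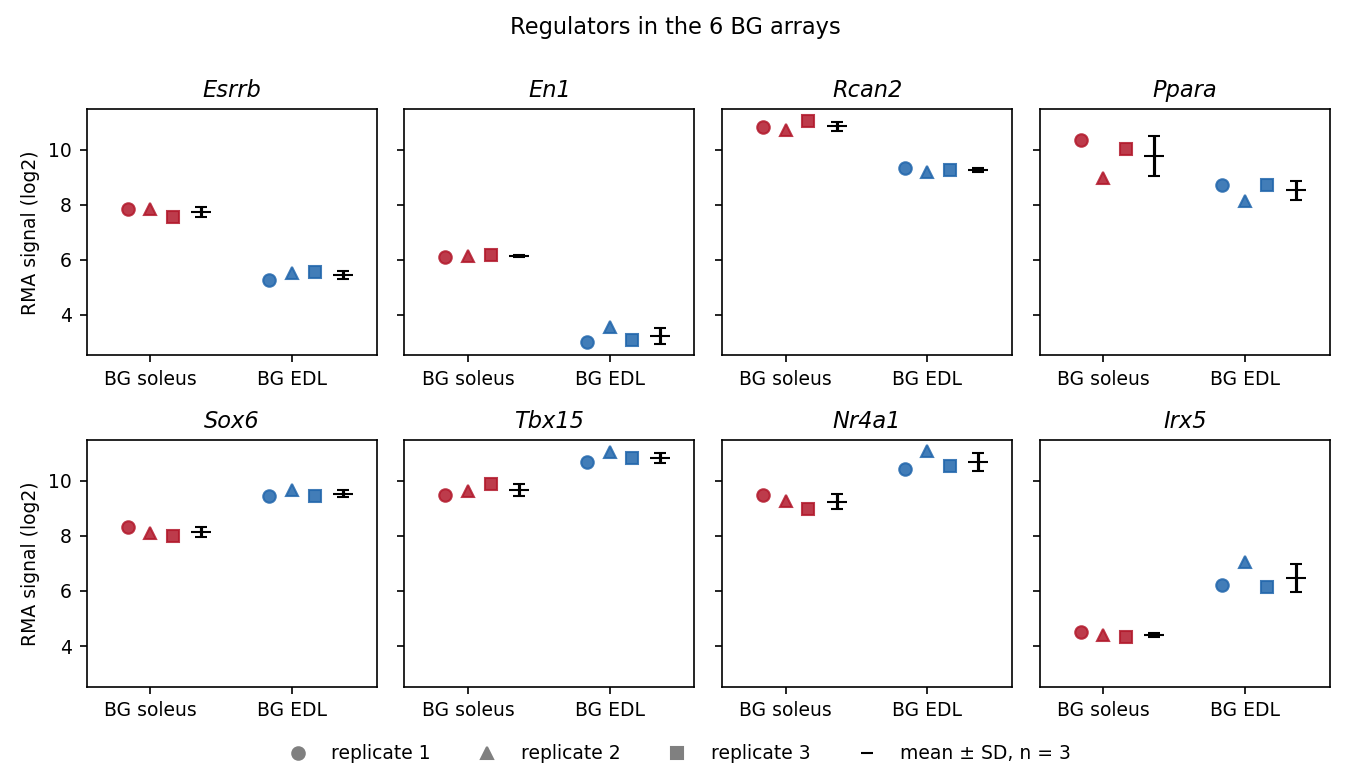
Log2 RMA signal of 8 regulators in each BG array, soleus in red and EDL in blue, with symbols for the replicate number and bars for mean ± SD (n = 3). Esrrb, En1, Rcan2 and Ppara are higher in all soleus arrays and Sox6, Tbx15, Nr4a1 and Irx5 in all EDL arrays, with Ppara of BG soleus 2 (8.96) closest to EDL (8.71).

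Homeobox, T-box and related genes, which mark the position where a muscle formed, mostly did not differ. Of 45 measured, 4 were higher in soleus (8.89%) and 5 in EDL (11.1%), shares near those of all genes, and with the 6 BG arrays fitted alone the 5 became 8, but a few differed strongly. En1, a homeobox gene of limb patterning, was 6.10, 6.13 and 6.16 in soleus and 3.00, 3.55 and 3.10 in EDL (7.54-fold, 2.92 ± 0.39, adjusted p = 7.3e-05). Irx5 was 4.50, 4.41 and 4.33 against 6.20, 7.07 and 6.14 (4.17-fold, -2.06 ± 0.37, adjusted p = 0.00095). Neither gene had overlapping arrays, and the lower muscle was under 5 in each, a level at which probe sets are dim. Tbx1 differed by -1.58 ± 0.29, and the zinc finger gene Zic1 by -2.25 ± 0.61 with an adjusted p of 0.0176 that reached 0.058 without BG EDL 2 and 0.07 without BG soleus 3.

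Genes of glycolysis and glycogen metabolism were mostly higher in EDL. Of 33 measured, 17 were higher in EDL (51.5%) and 7 in soleus (21.2%), with a median of -0.72. The cytosolic glycerol-3-phosphate dehydrogenase Gpd1 was 7.09, 7.31 and 7.35 in soleus and 10.26, 10.57 and 10.44 in EDL (9.03-fold, -3.17 ± 0.33, adjusted p = 5.8e-06). Slc16a3, the lactate exporter MCT4, was 6.10, 5.70 and 5.57 against 8.76, 9.06 and 8.74 (8.35-fold, -3.06 ± 0.47, adjusted p = 0.00025). Their arrays were separated by more than 2 log2 units. Phkg1 (-2.65 ± 0.25) and Phka1 (-1.94 ± 0.33), subunits of the phosphorylase kinase that starts glycogen breakdown, and the muscle fructose-1,6-bisphosphatase Fbp2 (-2.58 ± 0.36) were higher in EDL too. Lactate genes divided by muscle: the heart-type subunit Ldhb (1.72 ± 0.27) and the importer MCT1, Slc16a1 (1.53 ± 0.26), were higher in soleus, and the muscle-type subunit Ldha (-1.02 ± 0.17) in EDL. The glycogen branching enzyme Gbe1 (1.41 ± 0.20) and the glucose transporter Slc2a1 (1.40 ± 0.24) were higher in soleus. The muscle phosphofructokinase Pfkm was 2.07-fold higher in EDL (-0.92 without BG EDL 2), and hexokinase Hk2 differed by 0.29 ± 0.19 (adjusted p = 0.315). Ldha and Pfkm were chosen after their values were seen.

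Genes of fatty acid use moved the other way by smaller amounts. Of 37 measured, 17 were higher in soleus (45.9%) and 2 in EDL (5.41%), with a median of 0.49. These counts depended on single arrays, with 10 higher in soleus without BG soleus 2. Without BG soleus 2 and BG EDL 1 together, 5 were higher in soleus and 1 in EDL, with a median of 0.33. The fatty acid transporter Cd36 was 11.92, 12.43 and 12.22 in soleus and 11, 11.40 and 10.98 in EDL (2.08-fold, 1.06 ± 0.16, adjusted p = 0.00019) and was the only member past 2-fold toward soleus, although without BG EDL 3 (0.98) or BG soleus 2 (0.94) it was under 2-fold. Fabp3, which carries fatty acids in the cytosol, differed by 0.91 ± 0.16 (1.88-fold) without overlap. Cpt2, of the mitochondrial carnitine shuttle, had a difference of 0.53 ± 0.18 and an adjusted p of 0.0564. Ucp3, the mitochondrial uncoupling protein of muscle, was 2.85-fold higher in EDL (-1.51 ± 0.33, adjusted p = 0.0045).

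Median differences of core mitochondrial genes were small, although tricarboxylic acid cycle genes passed toward soleus more often than all genes (8.3%). In the tricarboxylic acid cycle 7 of 26 were higher in soleus (26.9%) and 1 in EDL (3.85%), with a median of 0.17. The 7 became 4 without BG soleus 2 or BG soleus 3, and the 1 became 0 without BG EDL 2, BG EDL 3, BG soleus 2 or BG soleus 3. Idh2, the NADP-dependent mitochondrial isocitrate dehydrogenase, stood out at 12.34, 12.36 and 12.16 in soleus and 9.86, 9.66 and 9.82 in EDL (5.69-fold, 2.51 ± 0.17, adjusted p = 5.6e-08). Of 63 subunits of the respiratory chain and ATP synthase, 4 were higher in soleus (6.35%) and 0 in EDL, with a median of 0.07, and the largest called difference was 0.65 ± 0.13 for Ndufb3 of complex I. This share was below the 8.3% of all genes. Of 28 cytosolic ribosomal protein genes, 0 passed in either direction in limma, and 5 had an unadjusted p under 0.05.

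Antioxidant enzyme genes were divided between the muscles, with 8 of 25 higher in soleus (32.0%) and 5 in EDL (20.0%), or 3 in EDL without BG EDL 3. Nnt, the mitochondrial transhydrogenase that makes NADPH, was 12.35, 12.38 and 12.18 in soleus and 10.32, 10.40 and 10.05 in EDL (4.14-fold, 2.05 ± 0.20, adjusted p = 3e-06). Gpx3, the secreted glutathione peroxidase, was 10.27, 10.23 and 9.74 against 12.05, 12.25 and 12.06 (4.10-fold, -2.04 ± 0.16, adjusted p = 4.1e-07). Neither had overlapping arrays. Catalase, Cat (1.49 ± 0.22), the microsomal glutathione transferase Mgst1 (1.15 ± 0.19) and the quinone reductase Nqo1 (1.12 ± 0.24, and 0.81 without BG soleus 2) were higher in soleus, and the glutathione transferase Gstm2 (-1.24 ± 0.20) in EDL.

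Of 31 heat shock and unfolded protein response genes, 13 were higher in soleus (41.9%) and 0 in EDL, with a median of 0.78, and 8 were higher without BG soleus 1. The co-chaperones Dnaja4 (1.77 ± 0.36) and Dnajb4 (1.73 ± 0.26), the chaperones Hspa2 (1.33 ± 0.17) and Hsp90b1 of the endoplasmic reticulum (1.22 ± 0.24) and the stress factor Ddit3 (1.26 ± 0.20) were called. The inducible chaperone Hspa1b was 11.67, 11.18 and 11.02 in soleus and 9.41, 7.95 and 11.27 in EDL. Its EDL arrays spread over more than 3 log2 units and overlapped with soleus, and the difference of 1.75 ± 0.80 had an adjusted p of 0.153, or 2.61 and 0.043 without BG EDL 3.

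**Figure D4:**
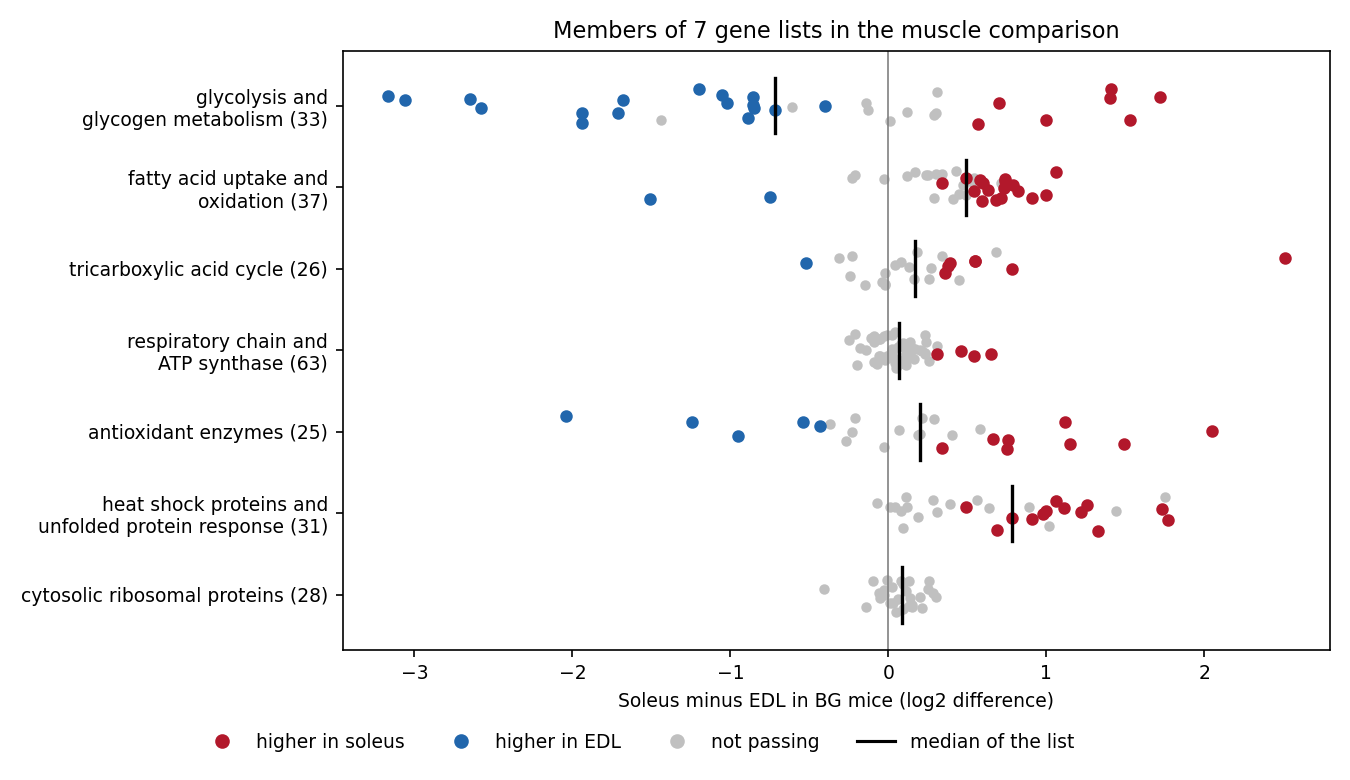
Difference between soleus and EDL in BG mice (log2) for each measured member of 7 gene lists, with the number of members in brackets, members with an adjusted p under 0.05 in red (higher in soleus) or blue (higher in EDL), others in grey, and a bar at the list median. Medians run from -0.72 for glycolysis to 0.78 for heat shock genes, and the respiratory chain (0.07) and ribosomal proteins (0.08) lie near 0.

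Of 17 genes of phosphate transfer, purine and polyamine metabolism, 2 were higher in soleus (11.8%) and 5 in EDL (29.4%), which became 1 and 3 without BG soleus 3, and the 2 became 1 without BG EDL 2. The largest toward soleus was Ampd3, the AMP deaminase known from red blood cells, at 10.15, 9.90 and 9.81 in soleus and 7.4, 7.35 and 7.4 in EDL (5.94-fold, 2.57 ± 0.32, adjusted p = 3.9e-05), with no overlap. Among 22 carbonic anhydrase, oxygen and iron genes, 5 were higher in soleus (22.7%), or 3 without BG soleus 3, and 3 in EDL (13.6%), or 1 without BG soleus 1 or BG soleus 2. The carbonic anhydrases Car2 (1.03 ± 0.18, and 0.90 without BG soleus 2) and Car3 (0.89 ± 0.20) and myoglobin, Mb (0.49 ± 0.10), the oxygen store of oxidative fibres, were among the soleus genes.

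Growth and atrophy genes were mostly level, with 2 of 35 higher in soleus (5.71%) and 4 in EDL (11.4%). The 2 became 1 without BG EDL 1 or BG soleus 2 and 0 without BG EDL 3 or BG soleus 1, and the 4 became 2 without BG EDL 2, BG EDL 3 or BG soleus 2. The growth factor binding protein Igfbp5 was 10.07, 9.82 and 10.10 in soleus and 11.28, 11.68 and 11.72 in EDL (2.95-fold, -1.56 ± 0.21, adjusted p = 8.1e-05), and Gadd45a, a growth arrest gene, was 2.94-fold higher in EDL (-1.56 ± 0.22). Fbxo32, the ubiquitin ligase atrogin-1, had a difference of -0.79 ± 0.59 and an adjusted p of 0.389.

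At the neuromuscular junction 4 of 22 genes were higher in soleus (18.2%) and 5 in EDL (22.7%). The 4 became 2 without BG EDL 1, BG soleus 2 or BG soleus 3, and the 5 became 3 without BG EDL 2, BG EDL 3, BG soleus 2 or BG soleus 3. The Wnt receptor Fzd9 was 9.73, 9.40 and 9.47 in soleus and 6.93, 7.11 and 7.15 in EDL (2.47 ± 0.14, adjusted p = 1.5e-08). The acetylcholine receptor subunits went apart, with Chrna1 higher in soleus (0.62 ± 0.13) and the adult epsilon subunit Chrne higher in EDL (-1.16 ± 0.22). Ache, the esterase that clears acetylcholine, was 2.71-fold higher in EDL (-1.44 ± 0.23). Musk, the receptor kinase that organises the junction, differed by 1.36 ± 0.40 with an adjusted p of 0.0276, and the call ended when any BG array other than EDL 3 was left out (adjusted p up to 0.097).

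Of 29 Z-disc, costamere and stretch genes, 11 were higher in soleus (37.9%) and 3 in EDL (10.3%), but 5 were higher in soleus without BG EDL 2, BG EDL 3, BG soleus 1 or BG soleus 3, and 6 without BG soleus 2. The small heat shock protein Hspb7 (1.90 ± 0.27) and the LIM protein Fhl2 (1.88 ± 0.20) had the largest differences and no overlap. Of 40 collagen and matrix genes, 4 were higher in soleus (10%), or 2 without BG EDL 1, BG EDL 2 or BG soleus 1, and 1 in EDL (2.5%), or 0 without BG EDL 2, BG soleus 2 or BG soleus 3. Periostin, Postn, a matrix protein of connective tissue, was 9.82, 9.72 and 10.12 in soleus and 7.63, 7.02 and 7.94 in EDL (5.12-fold, 2.36 ± 0.47, adjusted p = 0.0024).

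Genes of other cell types were measured beside these results, and their part in them was not tested. Adipocyte markers moved most, with 5 of 15 higher in soleus (33.3%), 0 in EDL and a mean level of 8.06 to 8.30 in soleus arrays against 7.17 to 7.51 in EDL arrays, and with the 6 BG arrays fitted alone the 5 became 10. Adipoq, the fat hormone adiponectin, was 8.53, 8.81 and 9.05 in soleus and 6.28, 6.66 and 7.23 in EDL (4.21-fold, 2.07 ± 0.42, adjusted p = 0.0027), the lipid droplet protein Cidea differed by 2.28 ± 0.27 and the triglyceride enzyme Dgat2 by 1.78 ± 0.23. Cidea and Dgat2 did not move with the list in BF mice. There the list median was 1.0, against 0.61 in BG, and Adipoq differed by 2.54, but Cidea by 0.97 and Dgat2 by 0.59. The adipocyte markers stand beside the fatty acid list, with which they share members. Endothelial markers had 2 of 19 higher in soleus (10.5%; level 8.50 to 8.57 against 8.24 to 8.46), of which the growth factor receptor Kdr differed by 0.81 ± 0.18. Smooth muscle and pericyte markers had 2 of 16 (12.5%; 8.73 to 8.78 against 8.58 to 8.85) and 0 in EDL, or 2 in EDL with the BG arrays alone. The endothelial count was 1 without BG EDL 3, BG soleus 2 or BG soleus 3, and the smooth muscle count was 1 without BG EDL 2, BG EDL 3, BG soleus 1 or BG soleus 3.

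Fibro-adipogenic progenitor and fibroblast markers had 5 of 16 higher in EDL (31.2%; level 7.98 to 8.11 in soleus against 8.27 to 8.39 in EDL), led by the complement regulator Cd55 (-1.32 ± 0.24). Macrophage markers had 1 of 20 higher in EDL (5.0%; 6.49 to 6.69 against 6.59 to 7.14), with 0 when any 1 of the 6 arrays was left out and 3 when the BG arrays were fitted alone. Of 13 tendon and cartilage markers only the cartilage factor Sox9 passed (1.64 ± 0.40, adjusted p = 0.0092, and 0.05 without BG soleus 1), with list levels of 7.13 to 7.66 in soleus and 7.0 to 7.21 in EDL. Red blood cell markers had 2 of 7 higher in EDL (28.6%; 6.0 to 6.05 against 6.11 to 6.26), or 1 without BG EDL 2, BG EDL 3, BG soleus 2 or BG soleus 3, of which the bisphosphoglycerate mutase Bpgm, which muscle also expresses, differed by -1.17 ± 0.24. Of 13 Schwann cell and nerve markers (5.83 to 6.38 against 5.97 to 6.18) 0 passed in limma, 1 had an unadjusted p under 0.05, and 2 were higher in soleus without BG soleus 1. Of 17 neutrophil and lymphocyte markers (4.55 to 4.71 against 4.66 to 4.78) 0 passed in limma with or without adjustment, and 11 were under 5 in both muscles. Satellite cell and regeneration markers had 2 of 19 higher in each muscle (10.5%), with 1 in soleus without BG EDL 2, BG EDL 3, BG soleus 1 or BG soleus 3 and at most 1 in EDL without any array. Myh3, the embryonic myosin of new fibres, was 9.34, 8.87 and 8.39 in soleus and 6.27, 6.22 and 6.31 in EDL (6.05-fold, 2.60 ± 0.32, adjusted p = 3.7e-05).

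Epidermis genes showed what 1 array can do. Keratin Krt13 was 4.36, 4.57 and 4.06 in soleus and 4.28, 11.05 and 5.78 in EDL, and loricrin, Lor, was 4.60, 5.26 and 4.25 against 4.79, 11.52 and 5.54. Only BG EDL 2 stood high. The differences were -2.71 ± 1.0 (adjusted p = 0.0772) and -2.58 ± 1.19 (adjusted p = 0.157), and without BG EDL 2 they were -0.70 and -0.46. Of 22 list members 1 was higher in EDL (4.55%), 6 without BG EDL 1, 1 without BG EDL 2 or BG soleus 2, and 0 without BG EDL 3, BG soleus 1 or BG soleus 3.

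The muscle difference of BG mice was then set against those of FC and BF mice, which share no array with it. However, all arrays were normalized together and 1 estimate of the spread per probe set served all contrasts. Passing in FC or BF mice is therefore not fully independent of the call in BG. Of the 474 genes called in BG, 462 had the same sign in FC mice, 379 the same sign with an adjusted p under 0.05, 292 were called there too, and 0 passed with the opposite sign. In FC mice 438 of all genes were called (3.53%), and 16.4% passed at any fold. The median size of the difference over the 474 genes, which were chosen in BG, was 1.36 in BG and 1.18 in FC. The test of the difference between BG and FC called 0 genes (1976 had an unadjusted p under 0.05, and the lowest adjusted p of a gene was 0.0505). Over all probe sets 1 passed this limma test with an adjusted p under 0.05, and no gene was read through it. However, 78 genes were called without BG EDL 1, 17 without FC soleus 3, 2 without FC EDL 3, 1 without FC soleus 2 and 111 with array quality weights. Genes with unlike values in both groups were Sln, with 3.49 in BG and 5.69 in FC (adjusted p of the difference 0.109), En1, with 2.92 and 0.67 (0.0944), Irx5, with -2.06 and 0.54 (0.0882), and Tbx1, with -1.58 and -0.22 (0.132). They were chosen after their values were seen, and none passed the limma test.

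In BF mice fewer genes passed, with 5.79% of all genes higher in soleus at any fold against 8.0% in FC mice and 8.3% in BG mice. Of the 474 genes 190 had the same sign and an adjusted p under 0.05, 109 were called there (304 of all genes, 2.45%, and 12.4% at any fold), and their median size was 0.62. The test of the difference between BG and BF called 370 of 12393 genes (2.99%), of which 156 were among the 474. In each of the 156 the difference was smaller in BF or of the other sign, 90 of them higher in soleus and 66 higher in EDL of BG mice. The 474 were chosen for their difference in BG, which largely fixes this direction. The count of 370 was 231 without BG soleus 3, 242 without BF soleus 1 and 574 without BF soleus 3.

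Fast genes had the largest of these shifts. Actn3 differed by -4.90 in BG and -0.46 in BF (difference -4.44), and Myh4 by -4.56 and -0.38 (-4.18). Mybph, which did not pass in BG (-2.0), had 2.44 in BF (-4.43). The probe sets read for Myh7 (4.92 and 5.03) and Tnni1 (5.05 and 4.40) shifted less. Probe sets naming Myh6 and Myh7 together were given here in BG only. The study lists such a probe set as lower in soleus of BF and of FC than of BG mice, with little change in EDL. Of the 17 slow genes 12 were higher in soleus in BF mice, against 16 in BG mice, with medians of 2.81 and 3.03. Only Pln (2.35 and -0.05) and Casq2 (2.97 and 0.99) of them passed the test of the difference, where 9.26% of all genes did at any fold. Each gene was read through 1 probe set, which for Atp2a2 gave 3.66 in BG and 3.39 in BF. The study, however, lists Atp2a2 as lower in soleus of BF than of BG mice, with little change in EDL. Toward soleus the largest shifts were Dusp18 (4.15 and 0.49), Postn (2.36 and -0.85), Myh3 (2.60 and -0.48), the matrix protein Aspn (2.01 and -0.92), Abhd18 (1.87 and -1.0) and Dkk2 (3.56 and 0.99). Cd68 of macrophages (0.75 and 3.81), the co-chaperone Dnajb1 (0.04 and 3.08) and the growth factor Hbegf (-0.22 and 2.72) had no call in BG and were higher in soleus in BF.

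**Figure D5:**
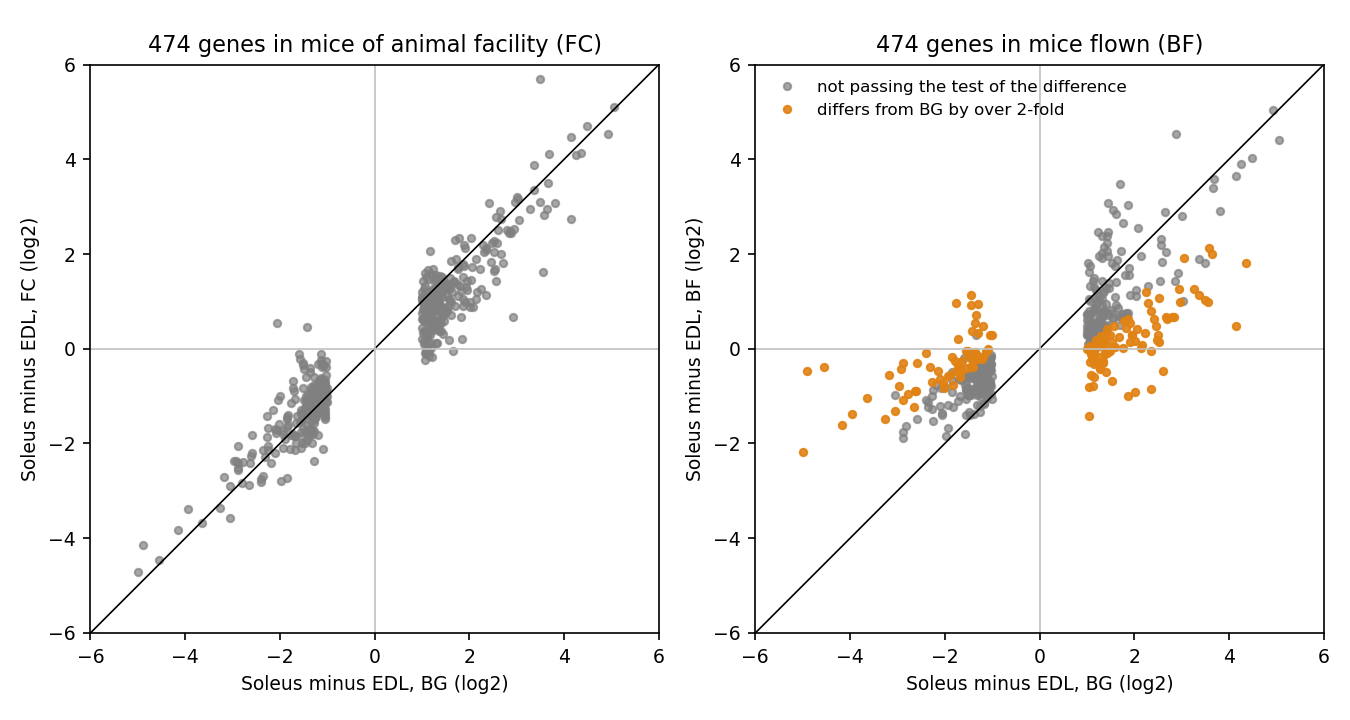
Soleus minus EDL difference (log2) of the 474 genes called in BG mice, on the x axis, against the same difference in FC mice (left) and in BF mice (right), with the line of equal values. In FC mice 462 points keep the sign of BG, and in BF mice the 156 points in orange, which differ from BG by over 2-fold, all lie nearer to 0 than the line or on the other side of 0, a direction that the choice of genes in BG largely fixes.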

How the data were processed

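RNA of 18 whole muscles, 3 of soleus and 3 of EDL from each of the BF, BG and FC groups, was hybridised to Affymetrix mouse genome arrays. The authors processed all arrays together with RMA in Partek Genomics Suite (background correction, quantile normalization, log2 transformation, median polish), and the deposited log2 values, from 2.11 to 14.53 with BG array medians of 6.19 to 6.25, were used as they are. RMA makes signals comparable between arrays of 1 probe set, not between probe sets. Of 22690 probe sets 64 controls were left out. By the platform annotation 20393 name 1 gene, 691 several and 1606 none, and 20364 were matched by Entrez number, giving 12393 genes, 4956 of them with more than 1 probe set. Each gene was read through the probe set naming it alone whose mean over the 18 arrays was highest. The 220 called genes with more than 1 probe set included 2, Pkp2 and Stau2, with probe sets passing in opposite directions.

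A model with 1 mean for each of 6 groups was fitted with limma 3.58.1 in R 4.3.3 over the 18 arrays, moderated by eBayes (residual degrees of freedom 12, prior 5.1), with Benjamini-Hochberg adjustment. Contrasts were soleus minus EDL in BG, the same in FC and BF, and BG less FC and BG less BF. The scripts were tested on simulated data. Figures and tables were made with Python 3.11.15, pandas 2.3.3, numpy 2.4.6 and matplotlib 3.10.9. Alternatives were the BG arrays alone, array weights, median centring, a filter at log2 5, ordinary contrasts, a trended robust prior, replicate blocks, other thresholds, any probe set of a gene, and each array left out.

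Named genes were every measured member of the slow and fast lists and the isoform pairs, the 15 largest differences in each direction among called genes without overlapping arrays, up to 5 called members of each other list and direction with key factors that had no call, and the 6 largest differences in each direction against FC and against BF. The comparison, the 31 lists (889 memberships measured or not, 113 of them not analysed here) and the tests were chosen with earlier results of these data known, so counts of list members are a description. Leaving out BG soleus 2 with BG EDL 1, and single arrays for the lists, was added after seeing the data. Protein sequences were not used here.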

Additional observations from a re-analysis of the deposited data

Results flagged for a closer look

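For 50 of 132 named genes the muscle difference of BG mice differed from that of BF mice by the limma test of the difference itself. Their adjusted p values ran from 1.8e-05 to 0.047. Of all genes 9.26% passed this test at any fold. Many named genes were chosen for a large difference in BG or against BF, so the count of 50 largely follows from that choice. Values below are the log2 difference of soleus minus EDL in BG less the same difference in BF, so that a positive value is a contrast further toward soleus in BG. Of the contractile, calcium and channel genes, the difference was Pln (2.41), Casq2 (1.98), Myh4 (-4.18), Actn3 (-4.44), Mybph (-4.43), Myoz1 (-1.13), Pvalb (-2.58), Myh3 (3.08), Atp1b2 (-2.19), Cacng1 (-1.07) and Kcnma1 (1.67). Of regulators and signalling genes it was Rcan2 (1.56), Ppara (1.43), Myod1 (-2.73), Nr4a1 (-1.81), Fzd9 (2.27), Wnt4 (-2.50), Dkk2 (2.58), Dusp18 (3.66) and Hbegf (-2.95). Of metabolic genes it was Bdh1 (2.45), Gpt2 (-2.57), Smox (-2.61), Gpd1 (-2.62), Slc37a4 (-1.82), Phkg1 (-1.40), Fbp2 (-2.28), Gbe1 (1.90), Cd36 (1.10), Fabp3 (1.03), Cpt2 (1.13), Idh2 (2.21), Pla2g7 (-1.77), Dgat2 (1.19) and Cidea (1.31). Of antioxidant, matrix, immune and stress genes it was Gpx3 (-1.30), Nnt (1.63), Cat (1.19), Nqo1 (1.22), Postn (3.21), Aspn (2.93), Cd68 (-3.06) and Dnajb1 (-3.04). Of the remaining named genes it was Lgi1 (2.55), Scube2 (1.64), Ift81 (1.46), Tspan8 (-2.82), Gdap1 (-2.54), Tlcd4 (-1.73) and Abhd18 (2.87). BG and BF mice share housing type and food, and differ in flight, landing and transport, which cannot be told apart here.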

How the results depend on the processing

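The count of 474 genes stayed between 441 and 487 under the other fits of all BG arrays, was 581 with any probe set of a gene and 502 with an unadjusted p, and ran from 446 to 532 without single arrays (234 to 266 higher in soleus, 211 to 266 higher in EDL), and no called gene changed sign under the other fits or without an array. Past 4-fold it was 101, with 59 higher in soleus and 42 in EDL. Numbers were not taken to pair the samples, since deviations of same-numbered arrays correlated by -0.049, 0.201 and 0.062 in BG and -0.021, 0.119 and 0.139 in BF, although by 0.373, 0.159 and 0.199 in FC, where all pairs passed 0.1. With the replicate block 486 genes were called in BG (473 of them among the 474), 443 in FC (436 of the 438) and 314 in BF (298 of the 304), with 0 against FC and 422 against BF. Array medians shifted the median of all genes from -0.06 to -0.01 when they were centred. Against FC, where 0 genes were called, array quality weights called 87 higher and 24 lower (111), median centring 5 higher (5 in all) and an unadjusted p 75 higher and 29 lower (104); without single arrays 0 to 61 were higher, 0 to 17 lower and 0 to 78 in all. Against BF, where 188 were higher and 182 lower (370), weights called 304 and 320 (624), ordinary contrasts 124 and 83 (207), any probe set 345 higher (576 in all), an unadjusted p 301 lower and the 4-fold threshold 21 and 32 (53); without single arrays 134 to 238 were higher, 97 to 336 lower and 231 to 574 in all. The causes of these shifts were not tested. With the BG arrays alone, single lists moved by over 1.5 times: adipocyte markers in soleus from 5 to 10, homeobox genes in EDL from 5 to 8, macrophage markers in EDL from 1 to 3 and in soleus from 0 to 1, smooth muscle markers in EDL from 0 to 2, tendon markers in soleus from 1 to 2, growth and satellite cell genes in soleus from 2 to 1, clock genes in soleus from 1 to 0, immediate early genes in EDL from 2 to 1, and tricarboxylic acid cycle and epidermis genes in EDL from 1 to 0. With median centring, tricarboxylic acid cycle genes in EDL became 0, immediate early and red blood cell genes in EDL 1 and ribosomal proteins in soleus 1. Of 132 named genes, the sign reversed for 3 without a call: Myh1 was 0.07 without BG soleus 2 and BG EDL 1, 0.01 with centring and from -0.10 to 0.04 without single arrays, Dnajb1 was from -0.04 to 0.13 and Hbegf from -0.62 to 0.26. Signal limits the comparison for dim genes, with 2932 under 5 in both BG muscles, and whether the highest signals are limited was not tested.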

Other observations

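Genes of the circadian clock and of the immediate early response, which depend on the hour and manner of dissection, were also read in the BG arrays. In BG mice 8.3% of all genes were higher in soleus and 8.71% in EDL. Of 17 clock genes 1 was higher in soleus (5.88%) and 2 in EDL (11.8%), shares near those of all genes, with a median of -0.41. The EDL count was 5 without BG EDL 1 and 1 without BG EDL 2. The soleus count was 0 without BG EDL 2, BG EDL 3, BG soleus 2 or BG soleus 3. Of 25 immediate early genes 3 were higher in soleus and 2 in EDL, with a median of 0.30, but the soleus count was 1 without BG EDL 1 or BG soleus 1 and 2 without any other BG array, and the EDL count was 1 without any BG array other than soleus 2. BF mice had 16 of the 25 higher in soleus and a median of 1.04, where 5.79% of all genes were higher in soleus. The heat shock list had a median of 0.78 in BG, 0.16 in FC and 0.78 in BF, with 13, 7 and 18 members higher in soleus. The fatty acid list had a median of 0.49 in BG, 0.59 in FC and -0.06 in BF, with 17, 23 and 2 members higher in soleus. The heat shock list has 31 measured members and the fatty acid list 37. Of all genes 8.3% in BG, 8.0% in FC and 5.79% in BF were higher in soleus. Differences between these medians were not tested as lists.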
